A study of Mus musculus with 2 samples.

Results

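Amino acid transporters of the plasma membrane were examined in bone marrow RNA from the femora of 8-day-old mice. The 10 genes were chosen as carriers of the plasma membrane, and all array probes whose platform annotation gives 1 of their symbols were taken. Of these 10 genes, 9 had a probe, 25 probes in all, among 19057 named genes on the array. Slc7a5, which encodes the large neutral amino acid carrier LAT1, had no probe of that name in the annotation used here and was not analysed here. The data were 1 Illumina MouseWG-6 v2.0 bead array of marrow with the genotype label Dnmt2-/- and 1 of marrow labelled wild type. Both were from animals aged 8 days. The labels give neither the strain, nor the kind of Dnmt2 allele, nor the number of animals behind each RNA. With 1 array for each label there was no replicate and no test, so every difference is given by its size and describes these 2 arrays.

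Cells take up amino acids through families of carriers with overlapping substrates. Proteins of the SLC7 family include cationic amino acid carriers and light chains that pair with the glycoprotein encoded by Slc3a2. The members of the SLC1 and SLC38 families examined here carry neutral amino acids such as alanine, serine and glutamine, and SLC6A9 carries glycine. Several of these genes are known targets of ATF4, the transcription factor that cells make in larger amounts when amino acids run short. In marrow, glycine is needed by red cell precursors, because haem synthesis starts from glycine.

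The arrays differed in more than their labels. Dnmt2 (Trdmt1) had a signal of 148.8 in marrow labelled Dnmt2-/- and 112.4 in marrow labelled wild type. That was 1.53-fold higher, just past 1.5-fold at dim signals, and the ratio was not recomputed under other settings. The sources used here do not place the Dnmt2 probe relative to the altered part of the gene, so both arrays are called by their labels throughout. Xist, the RNA of the silenced X chromosome, was at least 38.3-fold lower in marrow labelled Dnmt2-/-, and Y-linked Eif2s3y was at least 16.7-fold higher there. The arrays therefore also differ in sex-linked transcripts, and with 1 array for each label a difference of the transporters by genotype, by sex or between animals cannot be told apart. Marrow markers were present on both, with 12 of 13 erythroid and 14 of 15 neutrophil genes detected on both arrays at a detection p-value below 0.01, the limit used throughout. Markers of other tissues and cells moved with the labels. All 8 cartilage markers detected on both arrays, with log2 ratios from 0.92 (Col9a2) to 1.96 (Col2a1), were at least 1.5-fold higher in marrow labelled Dnmt2-/-. All 8 stayed higher under 6 other settings, but 5 passed 1.5-fold without background correction and 6 in the authors' processed values. Their summed linear intensity was 2837 there and 877 in marrow labelled wild type, and of the 16 cartilage markers 5 more were detected only in marrow labelled Dnmt2-/- and 3 on neither array. Of 15 skeletal muscle markers, all detected, 9 were at least 1.5-fold higher (Myh4 at -0.28 to Mb at 1.95), and they summed to 17210 in marrow labelled Dnmt2-/- and 9593 in marrow labelled wild type. So were 7 of 12 osteoblast (Bglap2 at -0.14 to Ibsp at 1.35) and 6 of 9 osteoclast markers (Itgb3 at -0.52 to Dcstamp at 1.14). Over the 6 settings these counts ran from 7 to 9 for muscle, 5 to 7 for osteoblasts and 5 to 7 for osteoclasts, and ratios of dim genes moved most, Mb between 1.09 and 2.35 and Dcstamp between 0.53 and 1.51. Neutrophil markers were lower for 12 of 14 genes (Csf3r at -0.76 to S100a8 at 0.13) and macrophage markers for 9 of 11 (Adgre1 at -0.90 to Spic at 0.41). B cell markers were higher for 7 of 9 (Ebf1 at -0.24 to Ms4a1 at 0.79) and endothelial markers for 9 of 10 (Egfl7 at -0.16 to Cdh5 at 0.42). Ebf1 had either sign across the settings, Ms4a1 ran from 0.25 to 1.44, and another Egfl7 probe was at 0.19. The part of these cells and tissues in the transporter values was not tested, and in such bulk RNA a different number of cells of a type and a different amount of RNA per cell cannot be told apart.

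Most transporter probes lay near background. Of the 25 probes, 10 were detected on both arrays, 2 in marrow labelled Dnmt2-/- only, 2 in marrow labelled wild type only and 11 on neither. For 22 probes the signal was below 1.5 times the fitted background on both arrays. That background was 94.9 intensity units (SD 3.43) in marrow labelled Dnmt2-/- and 90.9 (SD 3.16) in marrow labelled wild type. Each gene is represented below by its probe of highest mean normalized log2 intensity, and so 7 of the 9 measured genes counted as detected on both arrays and 2 on neither.

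Differences below are log2 ratios of marrow labelled Dnmt2-/- over marrow labelled wild type, after background correction and quantile normalization, and folds are taken from them. Of the 7 detected genes, 4 were higher in marrow labelled Dnmt2-/- and 3 were lower. Slc6a9, Slc3a2 and Slc1a4 were at least 1.5-fold higher, and no detected transporter was lower by that much. Among all 9746 genes detected on both arrays, 6.61% were at least 1.5-fold higher and 5.16% at least 1.5-fold lower. A difference of 2-fold or more was seen for 0 of the 7 transporters and for 1.62% of all detected genes in either direction, shares too close to read anything from, and with an offset of 1 Slc3a2 passed it. The median log2 ratio was 0.43 over the 7 transporters and -0.02 over all detected genes, whose 5th and 95th percentiles were -0.59 and 0.65. The count of 3 depended on the setting. It was 1, Slc6a9 alone, without background correction, with a larger offset of 50 and in the authors' processed values, while the all-gene shares were then 1.91%, 3.02% and 2.31% higher. With median scaling the count stayed at 3, but the median of all genes moved to 0.14, with 13.8% of genes at least 1.5-fold higher and 1.84% lower.

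**Figure D1:**
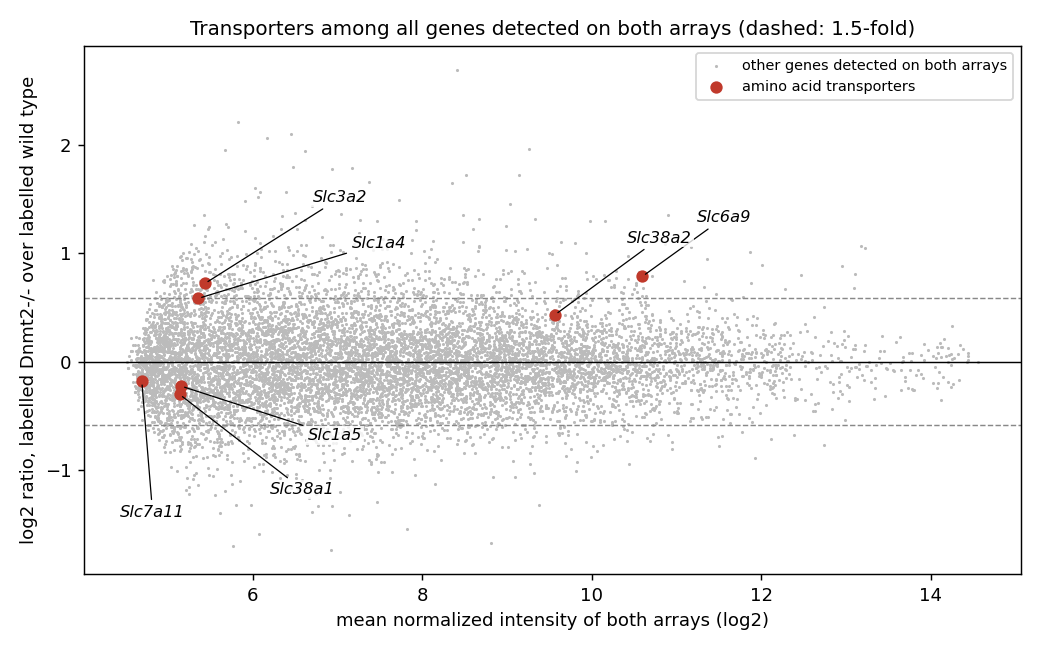
Each point is a gene detected on both arrays, with its mean normalized log2 intensity on the horizontal axis and its log2 ratio of marrow labelled Dnmt2-/- over marrow labelled wild type on the vertical axis. Slc6a9 and Slc38a2 lie among the bright genes at 0.79 and 0.43, and the other 5 transporters lie at the dim end.

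Slc6a9 encodes the glycine transporter GlyT1, which red cell precursors use to import glycine for haem. Its detected probe had a signal of 2175 in marrow labelled Dnmt2-/- and 1201 in marrow labelled wild type. Both signals were far above background and the first was the higher. The log2 ratio was 0.79 (1.73-fold higher), and 275 of the 9746 detected genes had a higher ratio. Over 9 alternative settings this ratio ran from 0.70 to 0.83, at least 1.5-fold in each of the 9. Among them, the changes of probe rule and detection limit could not move it, since no other probe of the gene was detected. A second Slc6a9 probe was detected on neither array, with signals of 95.9 in marrow labelled Dnmt2-/- and 83.6 in marrow labelled wild type, and cannot check the first.

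Erythroid markers stood beside this value as follows. Of 12 marker genes detected on both arrays, 9 were higher and 3 lower in marrow labelled Dnmt2-/-, with a median log2 ratio of 0.26. At least 1.5-fold higher were 3 of the 12, beside 6.61% of all detected genes. Over 6 other settings that count ran from 2 to 5. The summed normalized intensity of the 12 was 48576 in marrow labelled Dnmt2-/- and 43464 in marrow labelled wild type. The highest was the transferrin receptor Tfrc (1.84-fold higher), and the lowest was Alas2, the first enzyme of haem synthesis in red cells (log2 -0.24). Of the 13 markers with a probe, 1 was detected on neither array. The part of the erythroid cell number in the Slc6a9 value was not tested.

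Slc38a2 encodes SNAT2, a sodium-coupled carrier of small neutral amino acids that cells increase when amino acids are scarce. Its brightest probe had a signal of 1017 in marrow labelled Dnmt2-/- and 678.7 in marrow labelled wild type, and its second probe had 365.8 in marrow labelled Dnmt2-/- and 250.6 in marrow labelled wild type. The log2 ratios of these probes were 0.43 (1.35-fold higher) and 0.42. The remaining probe was detected in marrow labelled Dnmt2-/- only, at 108.0 against 96.1 in marrow labelled wild type, and was at least 1.26-fold higher. All 3 probes thus lay on the same side. The probes detected on both arrays did not reach 1.5-fold, and the third has only a lower bound. Over 9 alternative settings the ratio of the gene ran from 0.38 to 0.57.

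The related gene Slc38a1, which encodes the glutamine carrier SNAT1, was dim. Its brightest probe had a signal of 112.7 in marrow labelled Dnmt2-/- and 111.0 in marrow labelled wild type. The raw signals were nearly equal. Background was higher in marrow labelled Dnmt2-/-, and quantile normalization also scaled the arrays to each other. The normalized log2 ratio was -0.30 (1.23-fold lower), and it was -0.09 without background correction. A second probe, seen above background in marrow labelled Dnmt2-/- alone, stood at least 1.16-fold higher there, and 2 probes were detected on neither array. The probes of Slc38a1 therefore disagreed in direction. Of its 4 probes, 3 are annotated to cDNA clones and 1 to a RefSeq messenger RNA.

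**Figure D2:**
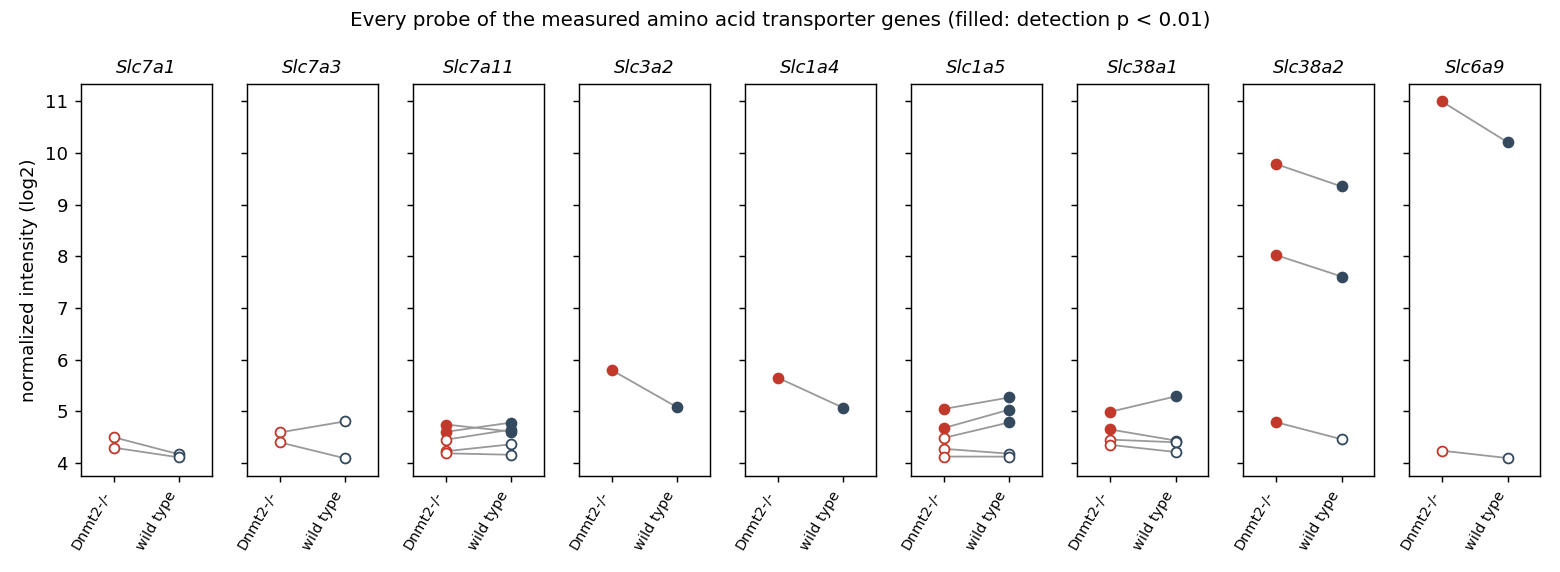
Lines join the normalized log2 intensity of each probe in marrow labelled Dnmt2-/- (left) and in marrow labelled wild type (right), with filled points where the probe was detected. All 3 Slc38a2 probes, the bright Slc6a9 probe and the single probes of Slc3a2 and Slc1a4 stand higher on the left, the 3 detected Slc1a5 probes stand higher on the right, and heights of different probes are not comparable.

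Slc3a2 encodes the CD98 heavy chain, the glycoprotein that brings LAT1 and the cystine carrier to the cell surface. Its only probe had a signal of 140.9 in marrow labelled Dnmt2-/- and 106.5 in marrow labelled wild type. These signals lay 13.4 background SDs above background in marrow labelled Dnmt2-/- and 4.92 in marrow labelled wild type. The log2 ratio was 0.72 (1.65-fold higher), with 363 detected genes higher. It kept its direction in all 9 alternatives but ran from 0.26 without background correction to 1.12 with an offset of 1, and passed 1.5-fold in 6 of them. Those 6 include the changes of probe rule and detection limit, which could not move the ratio of a gene with 1 probe, detected on both arrays.

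Slc7a11 encodes xCT, the cystine and glutamate exchanger that pairs with the CD98 heavy chain and feeds glutathione synthesis. Its promoter, printed below, is known for its ATF4 sites. The probe that stands for the gene had a signal of 104.1 in marrow labelled Dnmt2-/- and 101.3 in marrow labelled wild type, and another probe detected on both had 107.0 in marrow labelled Dnmt2-/- and 98.5 in marrow labelled wild type. Their mean signals were nearly equal. The normalized log2 ratios of these probes were -0.18 and 0.14, so the choice between them sets the sign of the gene. Another probe was detected in marrow labelled wild type only and was at least 1.15-fold lower in marrow labelled Dnmt2-/-, and 2 probes were detected on neither array. The probes gave no common direction at signals within a few background SDs of background.

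The promoter sequences of 6 of the 10 genes were in the RefSeq table (GRCm38.p6), 9 start sites in all, each from 250 bases before to 50 after the start. Both strands were searched for TGATGNAA, the C/EBP-ATF response element to which ATF4 binds, and for TGACNNNGC, the antioxidant response element bound by NRF2. The first was present for 2 of the 6 genes, Slc7a11 and Slc1a4. That was 2 of the 9 promoters, beside 3.97% of all 32851 promoters. The second was present for 3 genes, Slc7a1, Slc38a2 and Slc6a9, though not at every start site of Slc7a1 and Slc6a9. That was 4 of the 9 promoters, beside 12.4% of all promoters. The matches did not overlap. The E-box CACGTG (7.15% of promoters) and the GATA sequence AGATAA (11.2%) had no match in these windows. Sequences below run 5′ to 3′ on the gene's strand from 120 bases before the start to 10 after it, with matches in capitals. The Slc7a11 sequence (chr3:50443604-50443733, minus strand) holds 2 response elements on opposite strands, beginning 66 and 47 bases before the start. In Slc1a4 (chr11:20332704-20332833, minus strand) 1 element begins 4 bases before the start. The Slc38a2 sequence (chr15:96699719-96699848, minus strand) holds an antioxidant element that begins 27 bases before the start. A match is a description of the letters and not a binding site shown here.
Slc7a11: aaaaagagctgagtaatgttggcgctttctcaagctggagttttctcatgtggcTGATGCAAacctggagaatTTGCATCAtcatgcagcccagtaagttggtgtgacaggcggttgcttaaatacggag
Slc1a4: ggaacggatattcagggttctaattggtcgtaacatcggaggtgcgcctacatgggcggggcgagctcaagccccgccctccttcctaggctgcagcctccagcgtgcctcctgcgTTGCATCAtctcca
Slc38a2: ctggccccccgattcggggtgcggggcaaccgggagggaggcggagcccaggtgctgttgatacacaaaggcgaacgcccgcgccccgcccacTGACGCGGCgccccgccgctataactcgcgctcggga
Of the genes with a C/EBP-ATF element, Slc1a4 was at log2 0.59 and Slc7a11 at -0.18, with 0.14 in another Slc7a11 probe. Both genes were dim. Slc3a2, also dim, Slc6a9 and Slc38a2 have no such match in these windows and were at 0.72, 0.79 and 0.43. Whether the elements bear on these values was not tested.

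Slc1a4 encodes ASCT1, an exchanger of serine, alanine and cysteine. Its only probe had a signal of 134.5 in marrow labelled Dnmt2-/- and 106.3 in marrow labelled wild type. The first lay 11.5 background SDs above background in marrow labelled Dnmt2-/-, and the second 4.86 in marrow labelled wild type. The ratio was 1.5-fold, at the limit used for the count, and it passed 1.5-fold in 5 of 9 alternatives. Those 5 include the changes of probe rule and detection limit, which could not move the ratio of a gene with 1 probe, detected on both arrays. Its log2 ratio ran from 0.20 without background correction to 0.93 with an offset of 1.

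Slc1a5 encodes ASCT2, which exchanges glutamine for other neutral amino acids. Its brightest probe had a signal of 114.2 in marrow labelled Dnmt2-/- and 110.5 in marrow labelled wild type, a normalized log2 ratio of -0.22. The second probe, with signals of 105.6 in marrow labelled Dnmt2-/- and 105.7 in marrow labelled wild type, had a ratio of -0.36. Another probe was detected in marrow labelled wild type only and was at least 1.23-fold lower in marrow labelled Dnmt2-/-, and 2 probes were detected on neither. The 3 detected probes lay on the lower side. The probes detected on both arrays did not reach 1.5-fold, and the third has only a lower bound. Over 9 alternative settings the gene's ratio ran from -0.38 to -0.07, opposite in sign to that of Slc1a4 in each. The raw signal of the brightest Slc1a5 probe was the higher in marrow labelled Dnmt2-/-, so its minus sign came with the processing. All 9 alternatives use normalized arrays, and these signals were near background, so the direction of Slc1a5 is uncertain.

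The cationic carriers Slc7a1 (CAT-1) and Slc7a3 (CAT-3), which import arginine and lysine, were not detected at the limit of 0.01. The brighter Slc7a1 probe had a signal of 102.1 in marrow labelled Dnmt2-/- and 88.8 in marrow labelled wild type. The brighter Slc7a3 probe had 103.9 in marrow labelled Dnmt2-/- and 101.6 in marrow labelled wild type. At that limit no fold is given for these genes, and at these signals a difference in their transcripts was not detectable. At a looser detection limit of 0.05, Slc7a3 counted as detected, at a log2 ratio of -0.22, and the transporter median became 0.13 over 8 genes.

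**Figure D3:**
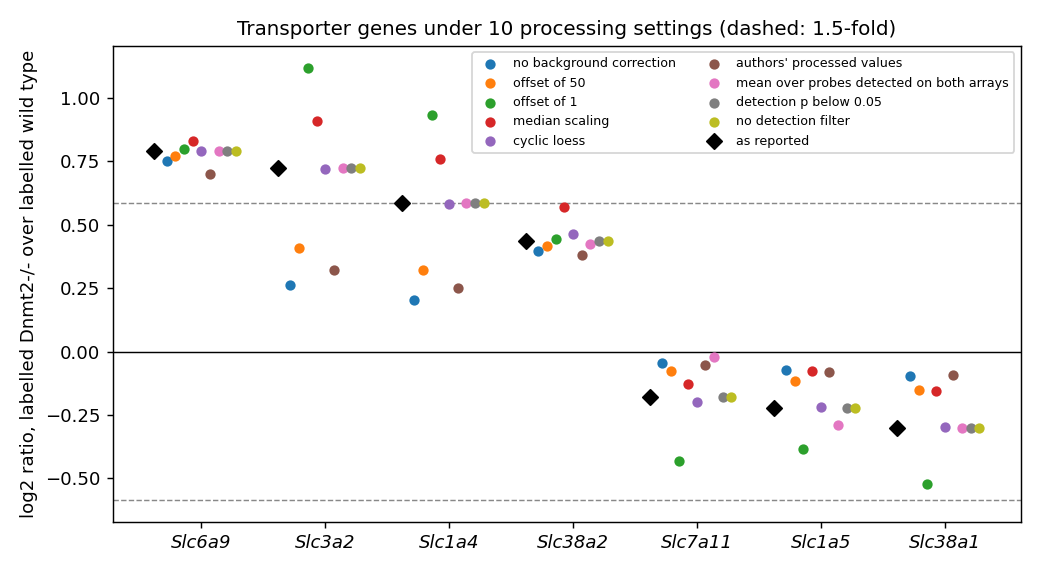
Log2 ratios of the 7 detected transporters (vertical axis, marrow labelled Dnmt2-/- over marrow labelled wild type) are plotted as reported (diamond) and under 9 alternative settings (circles). Slc6a9 and Slc38a2 stay within 0.70 to 0.83 and 0.38 to 0.57, while Slc3a2 and Slc1a4 range from 0.26 to 1.12 and from 0.20 to 0.93.

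The different probes of a gene give the only spread that these arrays allow. Over 3375 genes with more than 1 probe detected on both arrays, log2 ratios differed between probes of a gene with an SD of 0.29. The ratios of Slc6a9, Slc3a2, Slc1a4 and Slc38a2 were larger than this SD, those of Slc1a5 and Slc7a11 were smaller, and that of Slc38a1 was of about the same size. This SD measures agreement within the same 2 arrays and not between animals. It pools genes of all intensities, and the only probes of Slc3a2 and Slc1a4 were dim, so it may understate the spread for them.

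Other amino acid carriers did not share a direction. Of 30 further plasma membrane carriers with a probe, 11 were detected on both arrays, 5 higher and 6 lower in marrow labelled Dnmt2-/-, with a median log2 ratio of -0.02. Only 1 of these 11 was at least 1.5-fold higher, beside 6.61% of all detected genes, too close to read anything from. It was Slc43a1, a carrier of large neutral amino acids, with signals of 1693 in marrow labelled Dnmt2-/- and 991.7 in marrow labelled wild type. Its log2 ratio was 0.69 in that probe and 0.37 in another, and over 6 alternative settings it ran from 0.60 to 0.75. Slc7a7 (0.30, with -0.39 in another probe) and Slc36a2 (0.14) followed. The lowest were Slc7a8, which encodes LAT2, another partner of the CD98 heavy chain (-0.54), Slc1a6 (-0.40) and Slc7a13 (-0.40). The abundant glutamine carrier Slc38a5, named here after its values were seen, was at 0.04, with either sign across the scalings. A further 5 carriers were detected in marrow labelled Dnmt2-/- only and 2 in marrow labelled wild type only, and 12 on neither.

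Carriers inside the cell were also mixed. Of 6 lysosomal carriers detected on both arrays, 4 were higher and 2 lower, with a median of 0.10. Slc38a9, the arginine sensor of the lysosome, was highest at 0.63, but its probes ran from -0.35 to 0.75, and Slc15a3, a peptide and histidine carrier, was lowest at -0.72. Between them lay Slc15a4 (0.27), the cystine exporter Ctns (0.17), Slc38a7 (0.04) and Slc66a1 (-0.30), and for Slc15a4 and Ctns another probe had the opposite sign. Of 6 mitochondrial carriers, 2 were higher and 4 lower, with a median of -0.15. Slc25a38, the mitochondrial glycine importer that red cell precursors need for haem, was the highest at 0.41 (signals of 3169 in marrow labelled Dnmt2-/- and 2335 in marrow labelled wild type), although the lowest of its 3 probes was near 0. Slc25a12, an aspartate and glutamate carrier, was the lowest at -0.58, with 0.18 in another probe. The others were Slc25a15 (0.16), the serine carrier Sfxn1 (-0.06), Slc25a44 (-0.23, with either sign across the settings) and Slc25a18 (-0.32).

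Genes of the ATF4 pathway spread widely on the higher side. Of 19 detected, 12 were higher and 7 lower in marrow labelled Dnmt2-/-, with a median of 0.24, and 7 were at least 1.5-fold higher and 0 at least 1.5-fold lower, against the 6.61% and 5.16% of all detected genes. Over 6 other settings 7 or 8 were at least 1.5-fold higher and 0 lower. The highest were the pseudokinase Trib3 (6.46-fold, its probes at log2 2.69 and 1.67), the glutathione-degrading enzyme Chac1 (3.47-fold, a log2 ratio of 1.80 that ran from 0.96 to 2.21 over 6 settings) and the stress transcription factor Ddit3 (3.31-fold). Ratios were lowest for Shmt2 (-0.34, with 0.83 in another probe), the translation repressor Eif4ebp1 (-0.34) and the proline synthesis enzyme Aldh18a1 (-0.21). Atf4 itself and asparagine synthetase Asns, both named after their values were seen, were at 0.69 and 0.25. The transporters thus lay within the range of this list, below its highest genes, and no test of a shared pattern was possible with 2 arrays.

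**Figure D4:**
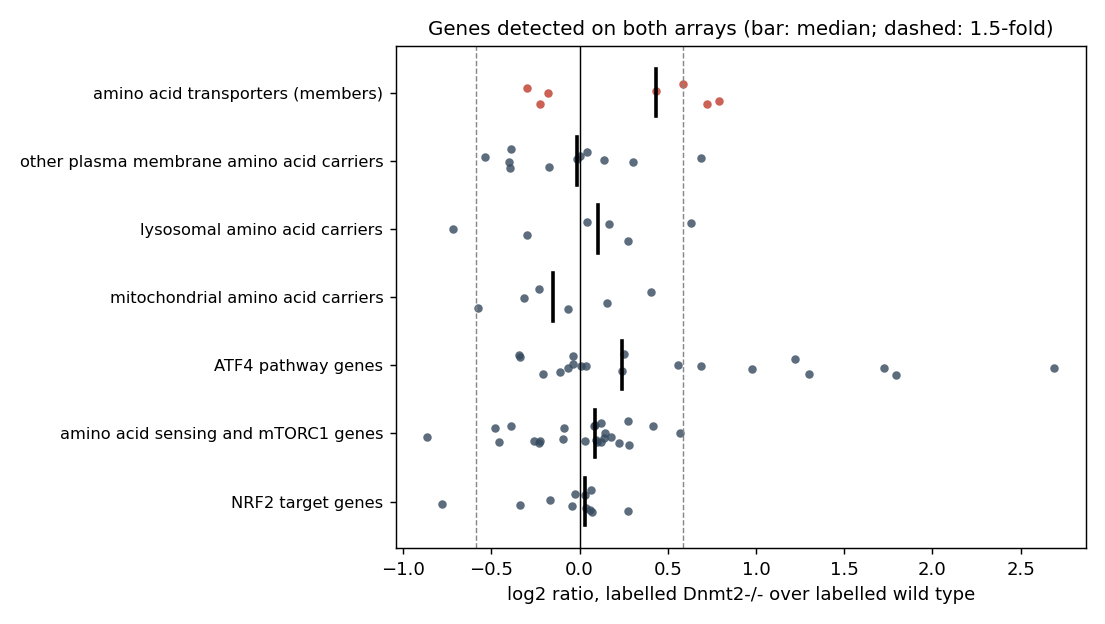
Each point is the log2 ratio (marrow labelled Dnmt2-/- over marrow labelled wild type) of a gene detected on both arrays, by list, with the median as a bar. Of the 7 transporters, 4 were higher and 3 lower. The 3 lower genes were dim, as were Slc3a2 and Slc1a4, and the sign of Slc7a11 depends on the probe. The ATF4 pathway list has the longest tail to the right.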

How the data were processed

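Per the labels' protocols, Trizol RNA was copied into biotin-labelled cRNA for bead arrays. The authors deposited a non-normalized table of linear signal intensity without background subtraction, with a detection p-value for each probe and array. A second deposited table holds normalized intensity, on a linear scale and not centred. The normalization is not stated in the labels used here. It leaves 1071 probes blank and served only as an alternative.

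Of 45281 probes, 34885 had 1 symbol in the platform annotation, 18 had several and 10378 were not named here. Background was removed by normexp in limma 3.58.1 (R 4.3.3), with its level inferred from the detection p-values, with an offset of 16. Log2 values of the corrected signals were then quantile normalized. The offset shrinks folds, most for dim genes. The probe with the highest mean stood for a gene, detection meant a p-value below 0.01, and a list needed 5 detected genes for a median. Where 1 array detected a probe, the fold is a lower bound against the higher of its own value and the lowest detected value of the other array. The median signal was 100.2 in marrow labelled Dnmt2-/- and 95.1 in marrow labelled wild type, and 43.2% of probes were detected in marrow labelled Dnmt2-/- and 41.4% in marrow labelled wild type. The number of arrays limits the precision. The steps were also run on simulated arrays, with changes of 2-fold or more placed among the brighter probes only. That run does not show how well 1.5-fold differences of dim genes are recovered. Alternatives changed background correction, offset, normalization, source of values, probe rule and detection limit.

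The members, gene lists and markers were chosen with earlier results of these data known. Named were all members with their probes, Dnmt2, Xist, Eif2s3y, the 3 highest and 3 lowest detected genes of each pathway list and 1 at each end of a marker list.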

Additional observations from a re-analysis of the deposited data

How the results depend on the processing

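The results were recomputed under 9 alternatives, which changed background correction, offset, normalization, source of values, probe rule or detection limit. The count of transporters at least 1.5-fold higher was 3 as reported, 2 with cyclic loess, where Slc1a4 fell just short, and 1 without background correction, with an offset of 50 and in the authors' processed values. Without background correction and with the larger offset, folds of dim probes shrink by construction, and the cause in the authors' values was not tested. The count of transporters at least 1.5-fold lower was 0 in all 9 alternatives. The median log2 ratio of the transporters was 0.43 as reported and ran from 0.13 to 0.57, and the value of 0.13, at a detection limit of 0.05, comes from adding Slc7a3. No direction of the 7 detected genes turned under these alternatives, all of which use normalized arrays. The lower genes Slc7a11, Slc1a5 and Slc38a1 had slightly higher raw signals in marrow labelled Dnmt2-/-, so their minus signs came with the processing. As a mean over its probes detected on both arrays, Slc7a11 was at -0.02. The changes of detection limit could not alter the ratio of a gene, only which genes were counted. The probe that stands for a gene decided the sign for Slc7a11, whose probes detected on both arrays gave -0.18 and 0.14. Over the same 9 alternatives the median ran from 0.04 to 0.25 for the ATF4 pathway list, -0.21 to 0.01 for other plasma membrane carriers, 0.01 to 0.32 for lysosomal carriers, -0.16 to -0.05 for mitochondrial carriers, -0.04 to 0.24 for amino acid sensing and -0.04 to 0.05 for NRF2 targets. Signal over background limits Slc3a2, Slc1a4, Slc1a5, Slc38a1 and Slc7a11, whose folds cannot be stated closely. No paired analysis was possible because each group has 1 array, and no replicate could be left out. Protein identity between members was not analysed here.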

Other observations

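Counts past 1.5-fold among amino acid sensing and antioxidant genes were too close to the all-gene shares to read anything from. Those shares were 6.61% higher and 5.16% lower. Of 24 genes of amino acid sensing and the mTORC1 kinase complex detected on both arrays, 15 were higher and 9 lower in marrow labelled Dnmt2-/-, with a median log2 ratio of 0.09. None was at least 1.5-fold higher, and Rragd, a GTPase that tethers mTORC1 to the lysosome, was the only one at least 1.5-fold lower (1.82-fold), at signals near background of 116.5 in marrow labelled Dnmt2-/- and 131.8 in marrow labelled wild type. Its log2 ratio of -0.86 ran from -1.28 to -0.33 over 6 other settings and no longer passed 1.5-fold in 3 of them. With median scaling 2 sensing genes were at least 1.5-fold higher, beside 13.8% of all detected genes. The mTORC1 activator Rheb (0.57), folliculin Flcn (0.42) and Rptor (0.28) were the highest, and the lysosomal scaffold genes Lamtor4 (-0.48) and Lamtor2 (-0.45) were low with Rragd. Of 11 NRF2 target genes detected, 6 were higher and 5 lower, with a median of 0.03. The haem-degrading enzyme Hmox1 was 1.72-fold lower, Taldo1 was at -0.34 and Nqo1 at -0.17, while Prdx1 (0.27), Srxn1 (0.07, with -0.25 in another probe) and Gclc (0.07) were the highest. Nqo1 had either sign across the settings.

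Slc38a4, a carrier of neutral and cationic amino acids, was detected in marrow labelled Dnmt2-/- only. Its signals were 128.0 there and 96.0 in marrow labelled wild type, at least 2.04-fold higher under the settings reported. Both signals were dim, below those of Slc3a2, whose ratio moved widely with the setting. The bound was not recomputed under other settings and cannot be stated closely. Slc38a4 was named after its values were seen.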
